A study of Mus musculus with 53 samples.

Results

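The axon guidance genes examined here are the 67 genes, of 12372 in the count table, whose symbols name the classical guidance cues and their receptors. They comprise netrins, netrin-G proteins and the netrin receptors Dcc and Unc5, Slits and Robo receptors, semaphorins with their neuropilin and plexin receptors, and ephrins with their EphA and EphB receptors. The rule reads symbols and uses no measured value. Of 73 protein-coding RefSeq symbols that fit the same spelling, 6 (Efna1, Efna4, Epha1, Epha2, Ntn5 and Unc5cl) were not in the table, which the authors had limited to genes averaging above 4 CPM (counts per gene scaled to equal library totals) over all samples. Counts and medians over the members therefore cover genes that passed that filter. By role, 34 members are ligands and 32 are receptors. The remaining member, Unc50, fits the spelling of the Unc5 family but encodes a trafficking protein of the secretory pathway rather than a guidance receptor.

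RNA was sequenced from brainstem, cerebellum, cortex and striatum of SCA3 mice and of wild-type controls on the C57BL/6 background. The SCA3 mice were hemizygous MJD84.2 animals, which carry the complete human ATXN3 gene, its CAG repeat expanded, under the human promoter, so that the transgene is expressed throughout the body next to the mouse Atxn3 gene. All mice were males aged 74 to 77 weeks, had taken part in behavioural testing and received no drug treatment. There were 8 wild-type and 6 SCA3 mice for brainstem, 7 and 6 for cerebellum, 7 and 6 for cortex, and 8 and 5 for striatum, giving 53 libraries from 14 mice.

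Guidance cues steer growing axons by attraction or repulsion. Netrin attracts through Dcc and repels through Unc5 receptors, Slit repels through Robo, semaphorins act on plexins, with neuropilins as coreceptors for most secreted class 3 members, and ephrins act on Eph receptor tyrosine kinases by cell contact. In the adult brain many of these genes remain expressed, where they take part in synapse maintenance, in vessels and in the oligodendrocyte lineage. In bulk tissue, fewer cells of a type and less RNA per cell cannot be told apart.

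Libraries held from 31.68 to 76.7 M counts each (M for mega). Marker lists were used to describe the dissections, which varied. Cortical glutamatergic neuron markers (4 genes) summed to 457 to 1974 CPM in wild-type cortex. They reached 726 CPM in wild-type striatum and 557 CPM in wild-type cerebellum, so this list did not fully separate cortex. For choroid plexus markers (4 genes), median sums in cerebellum were 395 CPM in wild-type and 1816 CPM in SCA3 mice. Summed striatal projection neuron markers (11 genes) lay between 3141 and 12239 CPM in striatum and reached 5142 CPM in cortex, 1213 CPM in brainstem and 589 CPM in cerebellum. A pair of wild-type striatal libraries stood apart: mouse 7267058 held 1494 CPM and mouse 7267059 held 2493 CPM of summed thalamic markers (10 genes), against 198 to 500 CPM in the other 6 wild-type striata and 190 to 437 CPM in the 5 SCA3 striata. Striatal genotype differences and the main striatal levels are given with and without these 2 libraries. RNA integrity numbers (RIN) were 6.3 to 7.6 in wild-type and 7.4 to 8.0 in SCA3 brainstem. In striatum they were 6.0 to 9.0 in wild-type and 5.7 to 8.3 in SCA3 mice. Striata of wild-type mice 7267055 (6.0) and 7267058 (6.2) and of SCA3 mouse 7267054 (5.7) lay below 7. Every library of cerebellum and cortex had at least 7.5.

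The promoter sequences of Plxnb3 and Sema6d, whose differences between SCA3 and wild-type mice had the smallest adjusted p-values among the members in the combined test over the 4 regions, are shown first. They are RefSeq windows of GRCm38.p6, plus strand, each 300 bases long and placed mostly before an annotated start. Plxnb3 lies on chromosome X (73756556 to 73772510), with its window at chrX:73756853-73757152, which lies within these gene bounds, so that the start it belongs to is internal to them. Sema6d lies on chromosome 2 (124089943 to 124667789) and has 2 annotated starts, with windows at chr2:124089719-124090018 and chr2:124653331-124653630. Capitals mark the E-box CAGCTG, which is its own reverse complement, and the SOX core ACAAAG, searched on both strands, as motif classes bound by factors of the oligodendrocyte lineage among many others.
Plxnb3: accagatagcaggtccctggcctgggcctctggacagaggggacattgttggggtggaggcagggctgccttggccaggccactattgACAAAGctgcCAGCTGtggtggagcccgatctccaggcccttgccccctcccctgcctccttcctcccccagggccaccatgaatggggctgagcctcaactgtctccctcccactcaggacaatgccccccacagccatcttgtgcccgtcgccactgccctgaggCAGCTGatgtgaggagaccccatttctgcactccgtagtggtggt
Sema6d, upstream start: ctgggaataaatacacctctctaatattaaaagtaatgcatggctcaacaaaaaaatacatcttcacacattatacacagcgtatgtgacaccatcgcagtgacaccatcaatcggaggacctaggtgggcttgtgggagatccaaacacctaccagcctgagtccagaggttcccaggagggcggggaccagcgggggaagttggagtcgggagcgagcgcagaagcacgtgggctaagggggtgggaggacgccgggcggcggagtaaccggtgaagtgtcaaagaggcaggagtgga
Sema6d, downstream start: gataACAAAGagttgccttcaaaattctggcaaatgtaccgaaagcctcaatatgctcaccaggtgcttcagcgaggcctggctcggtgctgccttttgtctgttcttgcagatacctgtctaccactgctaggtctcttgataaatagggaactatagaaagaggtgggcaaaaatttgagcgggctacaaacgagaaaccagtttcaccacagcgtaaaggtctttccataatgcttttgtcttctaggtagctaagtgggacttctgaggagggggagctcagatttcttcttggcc

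The Plxnb3 window held 2 E-boxes and 1 SOX core, the upstream Sema6d window neither, and the downstream window 1 SOX core. Among 32851 RefSeq promoter windows of the same length, 16.3% held the E-box and 18.7% the SOX core. For the 57 members with an entry, 11 of 72 windows (15.3%) held the E-box and 9 of 72 (12.5%) the SOX core, so the letters are common and the matches are descriptions only.

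Levels by region were first compared in wild-type mice. Of the 67 members, 61 (91.0%) differed between the 4 regions at a false discovery rate (FDR) below 0.05. This share lay near that of all genes (93.0%) and is not a result about the guidance genes. The 6 that did not pass were Sema3g, Ephb4, Sema3a, Sema3f, Robo4 and Efna2. From the region with the highest mean level to the region with the lowest, levels differed 2.8-fold in the median, between 1.08-fold for Efna2 and 17.7-fold for Robo3, and 50 members differed at least 2-fold. The highest mean lay in cortex for 26 members, in brainstem for 16, in cerebellum for 16 and in striatum for 9. When neighbours in each gene's order of regions were tested pairwise, the first exceeded the second for 11, 4, 15 and 4 of these, respectively. For 7 members no neighbouring step passed, and for 6 all 3 steps did. These pairwise counts have no share of all genes beside them and are not a result about the guidance genes.

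**Figure D1:**
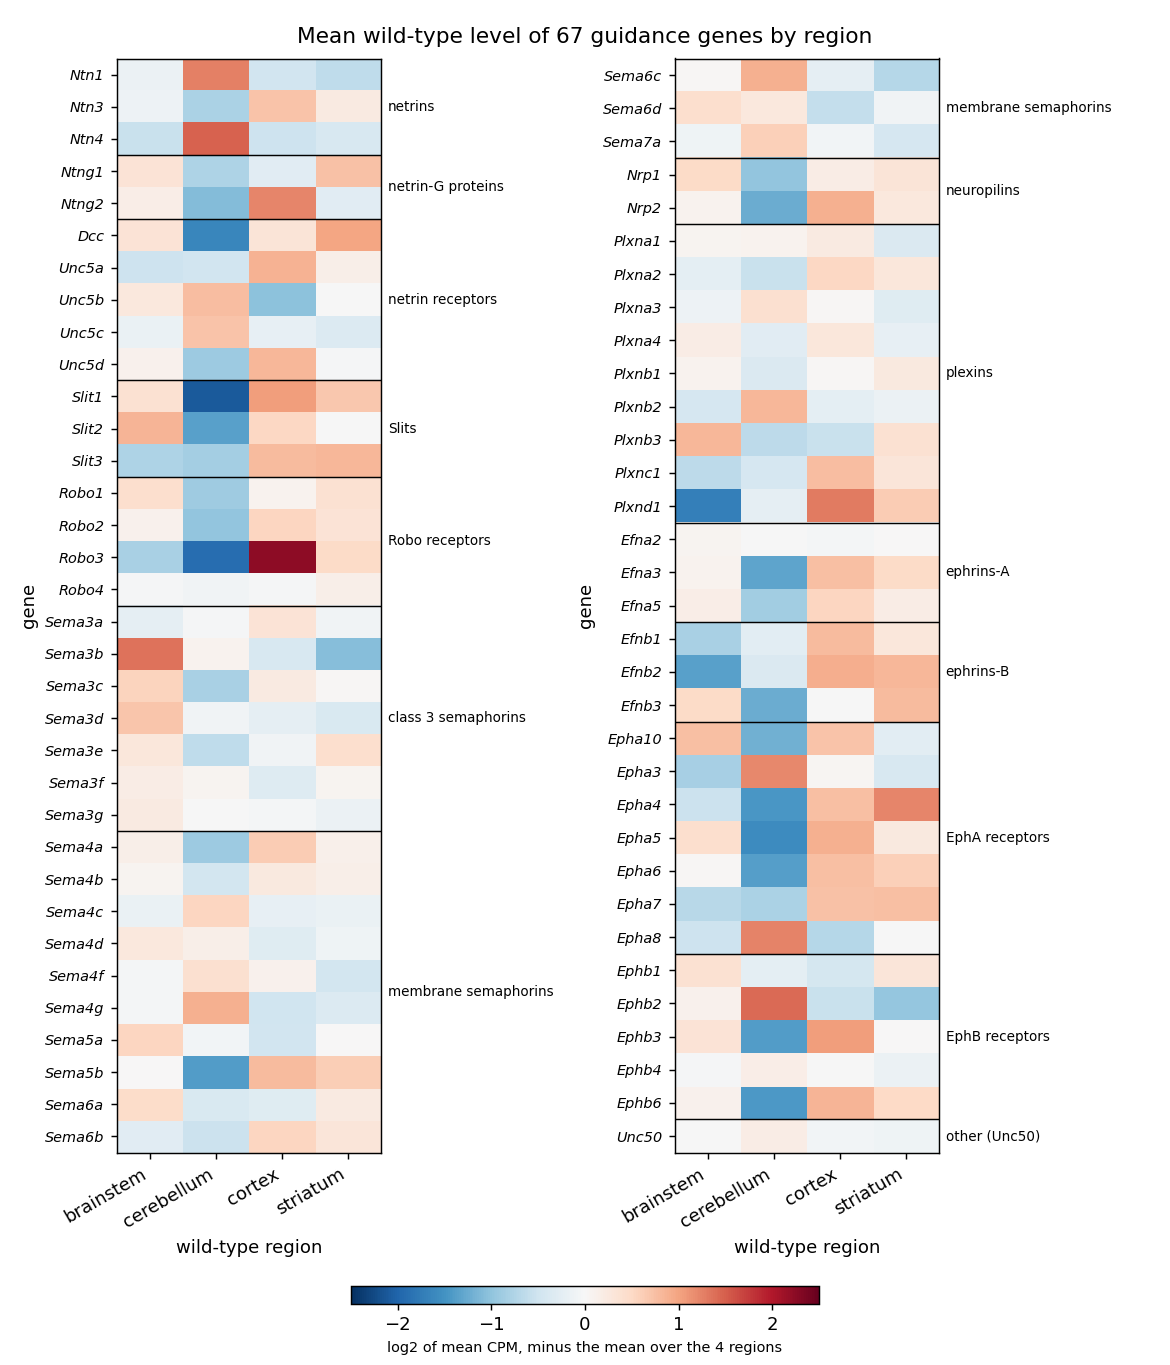
Wild-type levels of the 67 members in 4 regions, grouped by family, as log2 of the mean CPM of a region minus the mean over the regions of that gene (n = 8, 7, 7 and 8 mice for brainstem, cerebellum, cortex and striatum). Robo3 in cortex is the most intense red cell, and Slit1 and Robo3 in cerebellum are among the deepest blue cells. Cerebellum is the lowest region for 35 members.

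Cerebellum differed most from the other regions. Against the mean of the other 3 regions, 18 members (26.9%) were higher and 39 (58.2%) lower in cerebellum, where 35.3% and 38.4% of all genes were called higher and lower. The median log2 difference of the members was -0.50 and that of all genes -0.02. All 3 Slits, 3 of 4 Robo receptors, both neuropilins, both netrin-G proteins, all 3 ephrins-B and 5 of 7 EphA receptors were called lower. Membrane semaphorins were divided, with 7 of 13 higher and 5 lower.

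The members that most exceeded the other regions in cerebellum were Ntn4, Ephb2 and Ntn1. Ntn4, a netrin of basement membranes, had a lowest, median and highest wild-type level of 25.4, 29.1 and 35.7 CPM in cerebellum, and means of 7.39, 7.67 and 8.3 CPM in brainstem, cortex and striatum (log2 difference 1.96 ± 0.11 SE, FDR 1.5e-87). Its cerebellar libraries did not overlap with those of any other region, whereas neighbours among the other 3 regions were not distinguished. Ephb2, a receptor for ephrins-B, lay between 51.7 and 102 CPM (median 63.6) in cerebellum, above every wild-type library of the other regions (1.88 ± 0.17, FDR 9.6e-32). Ntn1, the founding netrin, lay between 57.7 and 117 CPM (median 76.5) and exceeded brainstem, the second region, whose mean was 32.3 CPM (1.68 ± 0.19, FDR 5.5e-20). Its receptor Dcc was low there: 4.65 to 14.7 CPM (median 11), with a log2 difference of -2.19 ± 0.16 (FDR 2.3e-30). Unc5b, a repulsive netrin receptor, was at its highest in cerebellum, with a mean of 148 CPM against 42.6 CPM in cortex, the lowest region.

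Cortex had the most members above the other regions, 31 (46.3%), with 16 (23.9%) lower, against 30.6% and 29.0% of all genes. Called higher were all 3 Slits, 5 of 7 EphA receptors and 5 of 9 plexins. Robo3, a Robo receptor that governs midline crossing of commissural axons, had the largest difference (2.98 ± 0.36, FDR 1.1e-18) but spread widely in cortex, from 6.75 to 105 CPM with a median of 23.5, so that its low cortical libraries overlapped with striatum (4.41 to 19.0 CPM). Plxnd1, the receptor of Sema3e, was tighter, at 104 to 193 CPM (median 145) in cortex and 12.1 to 26.4 CPM in brainstem (1.72 ± 0.17, FDR 2.7e-27). Ntng2, a membrane-anchored netrin-G, lay between 9.66 and 43.6 CPM (median 25.0) in cortex (1.63 ± 0.20, FDR 1.1e-17). In Ntng2, 20.4% of the exonic length is shared with a same-strand gene, so part of its count is uncertain.

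In striatum 28 members (41.8%) were higher and 18 (26.9%) lower than in the other regions, against 27.8% and 27.2% of all genes. Epha4, an Eph receptor with broad ligand binding, ranged from 166 to 265 CPM (median 230) and exceeded cortex, the second region, by 0.46 on the log2 scale (FDR 0.019, and 0.055 without the 2 thalamus-rich libraries). Its difference from the mean of the other regions was 1.63 ± 0.13 (FDR 4.3e-39). Dcc was at its highest here, 32.0 to 80.1 CPM (median 58.7, difference 1.31 ± 0.15, FDR 6.3e-18). Efnb2, a transmembrane ligand, spread from 27.2 to 99.2 CPM (median 80.2, difference 1.11 ± 0.13, FDR 5.1e-18) and was not distinguished from cortex (FDR 0.76). Without the 2 thalamus-rich libraries the differences from the other regions were 1.59 for Epha4, 1.45 for Dcc and 1.34 for Efnb2, and 29 members were higher and 19 lower, against 28.4% and 29.8% of all genes. Of the 46 members called with all libraries, 42 were called without them, all with the same sign. Ntng1 was not among these (0.97, FDR 0.00069, with all libraries and -0.27, FDR 0.26, without them).

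Brainstem had 22 members (32.8%) higher and 16 (23.9%) lower, against 34.1% and 36.0% of all genes. Of the class 3 semaphorins, 5 of 7 were higher and none was lower. Sema3b ranged from 6.13 to 31.5 CPM (median 13.9) in brainstem, with a mean of 3.09 CPM in striatum (difference 1.81 ± 0.25, FDR 7.2e-14). Slit2 lay between 39.6 and 57.4 CPM (median 46.8) and exceeded the other regions by 1.12 ± 0.16 (FDR 5.1e-13), but was not distinguished from cortex, its neighbour in the order (FDR 0.15). Plxnb3, a plexin expressed in the oligodendrocyte lineage and a receptor of Sema5a, had brainstem values of 82.9 to 153 CPM (median 142) and followed the order brainstem, striatum, cortex and cerebellum, of which cortex and cerebellum were not distinguished (FDR 0.55). Its brainstem difference from the other regions was 1.11 ± 0.11 (FDR 8.4e-24).

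Between genes, levels were compared only per kilobase of annotated exon. The highest wild-type levels, averaged over regions, were those of Efnb3 (56.3 CPM per kilobase), Sema7a (47.4) and Sema6b (26.1), all ligands. The median member had 6.8 CPM per kilobase and the lowest, Robo4, an endothelial Robo, 1.13. Efnb3, the ephrin of the ventral midline, was at its highest in striatum, between 235 and 310 CPM, and all 3 of its neighbouring regions differed. Sema7a, a membrane-anchored ligand of plexin-C1, was highest in cerebellum (210 to 262 CPM) and varied greatly in cortex (44.2 to 315 CPM). Sema6b, a transmembrane ligand of plexins A, ranged from 98.5 to 169 CPM in cortex and was not distinguished there from striatum (FDR 0.11).

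The SCA3 mice were then compared with wild-type mice within each region. In brainstem and cortex a single member passed, and it was the same gene: Plxnb3 rose in SCA3 mice in both regions. No member fell. The share of members called higher was 1.49% in each, where 0.776% of all genes were called higher in brainstem and 0.121% in cortex, and 1.15% and 0.0323% lower. The median absolute log2 fold change of the members was 0.14 in brainstem (all genes 0.08) and 0.09 in cortex (all genes 0.06).

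Brainstem Plxnb3 lay between 82.9 and 153 CPM (median 142) in the 8 wild-type mice, and between 171 and 210 CPM (median 188) in the 6 SCA3 mice. All SCA3 libraries lay above all wild-type libraries. On the log2 scale the difference was 0.53 ± 0.15 (SE), with an FDR of 0.021. In cortex, wild-type values were 33.2 to 60.7 CPM (median 52.7, n = 7) and SCA3 values 60.7 to 100 CPM (median 79.9, n = 6). The groups met at the lowest SCA3 library, and the fold change was 0.68 ± 0.15 (FDR 0.006). Cerebellum and striatum did not pass but had differences of the same sign: 0.31 ± 0.15 in cerebellum (38.6 to 52.8 CPM in wild-type, 40.2 to 69.6 CPM in SCA3) and 0.33 ± 0.15 in striatum (FDR 0.17). In striatum the SCA3 libraries held 115, 113, 145, 109 and 123 CPM, and wild-type libraries 68.6 to 152 CPM (median 85.2). Of the wild-type striata, mouse 7267059, rich in thalamic markers, was the highest. Without it and mouse 7267058, the striatal fold change of Plxnb3 was 0.50 (FDR 0.041).

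With the mouse as a replicate block in limma-voom, the FDR of Plxnb3 was 0.054 in brainstem and 0.081 in cortex. With RIN as a covariate its brainstem FDR was also 0.054, and leaving out mouse 7267054, 9082853, 9083373 or 9083513 ended the brainstem call, as did mouse 7267056, 7267058 or 9083514 the cortical call, with fold changes of 0.45 to 0.61 in brainstem and 0.61 to 0.76 in cortex over all alternatives. Of 10 mature oligodendrocyte markers, 2 were called lower in SCA3 brainstem, among them Aspa, and none higher. All 10 had fold changes below 0 (median -0.39). Their summed level was 10346 to 21461 CPM in wild-type and 9435 to 15943 CPM in SCA3 brainstem, and no marker was under 1 CPM throughout a group. Of 6 oligodendrocyte precursor markers 1 was called, Matn4, which was higher, with sums of 146 to 243 CPM in wild-type and 161 to 239 CPM in SCA3 brainstem. Of 9 astrocyte markers, 4 were called lower in SCA3 brainstem and all 9 had fold changes below 0 (median -0.40), with sums of 3216 to 7332 CPM in wild-type and 2777 to 4087 CPM in SCA3 mice. All 8 microglia markers had fold changes below 0 (median -0.14), of which 1 was called, with sums of 305 to 578 CPM and 341 to 433 CPM. In cortex no marker of these 4 lists was called. The part of cell composition in the Plxnb3 difference was not tested.

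**Figure D2:**
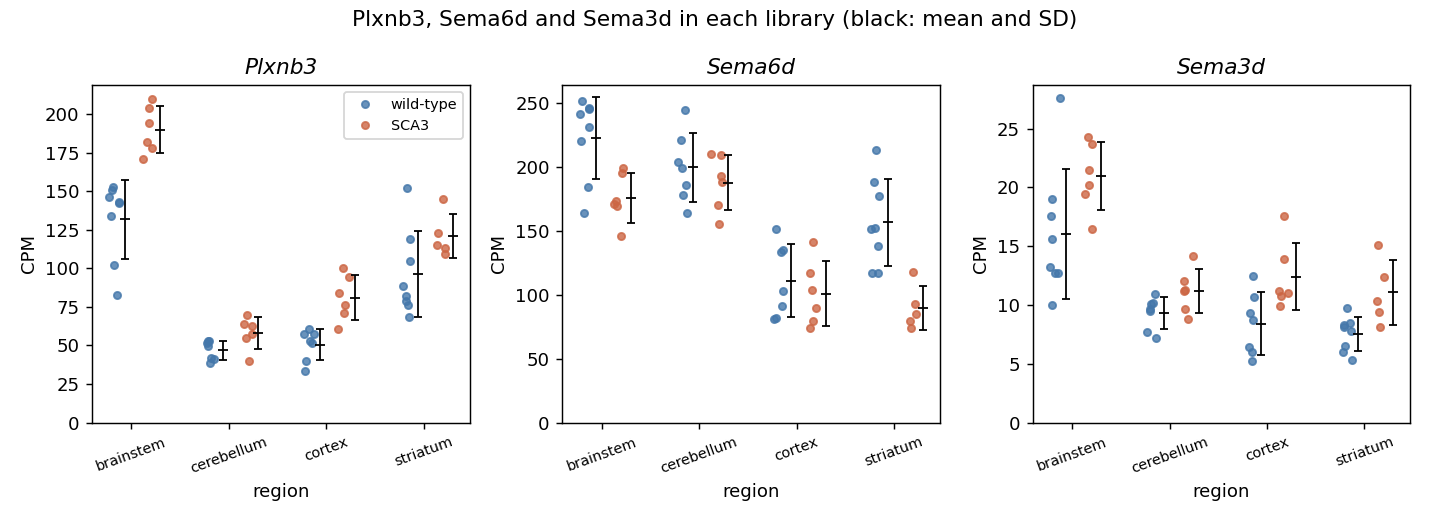
Levels of Plxnb3, Sema6d and Sema3d in CPM (vertical axis, from 0) in each library of the 4 regions, wild-type in blue and SCA3 in orange, with the mean and SD in black. SCA3 brainstem values of Plxnb3 (171 to 210 CPM) all lie above the wild-type values, and in striatum 4 of 5 SCA3 values of Sema6d lie below all wild-type values.

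The other plexin-B receptors did not pass in any region. Plxnb1, a receptor of Sema4d, had brainstem means of 159 CPM in SCA3 and 170 CPM in wild-type mice (log2 fold change -0.09 ± 0.07), and Plxnb2 of 93.6 and 88.6 CPM (0.08 ± 0.09). Outside brainstem, Plxnb1 fold changes were -0.21 ± 0.08 in striatum (FDR 0.069), -0.17 ± 0.08 in cortex and -0.08 ± 0.08 in cerebellum. Sema4d, a semaphorin carried by oligodendrocytes among other cells, ranged from 64.1 to 110 CPM (median 95.9) in wild-type and from 100 to 125 CPM (median 108) in SCA3 brainstem, and missed the threshold (0.26 ± 0.09, FDR 0.081). Its fold changes were 0.11, 0.23 and 0.16 in cerebellum, cortex and striatum.

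In cerebellum no member passed edgeR's likelihood ratio test, DESeq2 or any other test run on the same samples without further covariates. An unadjusted p below 0.05 was found for 2 members (Plxnb3 and Sema4a), a cut at which no share of all genes is given. Among all genes 0.0404% were called higher and 0.0242% lower in cerebellum. The median absolute log2 fold change was 0.10 for the members and 0.04 for all genes.

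Striatum was the region with most calls. There 5 members (7.46%) rose in SCA3 mice, against 2.07% of all genes, and 10 (14.9%) fell, against 5.47%. Robo2, Sema3e, Slit3, Sema3d and Plxnd1 rose, and Sema6d, Sema4g, Plxna3, Unc5b, Plxna1, Ntng1, Nrp1, Sema5a, Epha3 and Ephb2 fell. A further 13 members had an unadjusted p below 0.05 without passing. No share of all genes at that cut was set beside this count. By the quasi-likelihood test 2 members rose and 8 fell (1.95% and 4.98% of all genes), as Epha3 (FDR 0.054), Sema3d and Slit3 (both 0.059), Ephb2 (0.06) and Plxnd1 (0.062) missed the threshold. With a RIN of at least 7, Sema6d and Unc5b were the 2 members called (1.12% of all genes). A mouse series here means mice whose numbers share their leading digits. In edgeR's test of the largest mouse series alone there were 0 calls (0.242% of all genes called). Its SCA3 striata were those of mice 9083514 and 9083515 only. There, 18 members had an unadjusted p below 0.05, again without a share of all genes at that cut. With each mouse left out in turn, 5 to 21 members were called, 5 without SCA3 mouse 7267054, 7267056 or 9083515 (3.23%, 2.43% and 2.4% of all genes) and 21 without wild-type mouse 9082857 (14.8% of all genes). Sema6d, Sema4g, Plxna3, Unc5b and Robo2 passed in all 14 of these fits, and the other 10 in between 3 (Slit3) and 11 (Plxna1). With the mouse as a replicate block in limma-voom, 10 of the 15 passed (5.76% of all genes were called), and Sema3d (FDR 0.074), Sema5a (0.09), Epha3 (0.14), Ephb2 (0.17) and Ntng1 (0.19) did not. The same 5 missed the threshold in limma-voom without the block (FDR 0.067 to 0.19). The median absolute log2 fold change was 0.31 for the members and 0.11 for all genes. By family, the calls covered 3 of 9 plexins, 3 of 13 membrane semaphorins, 2 of 7 class 3 semaphorins, 1 of 2 netrin-G proteins, 1 of 2 neuropilins, 1 each of Slits, Robo, EphA, EphB and netrin receptors, and no ephrin or netrin.

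**Figure D3:**
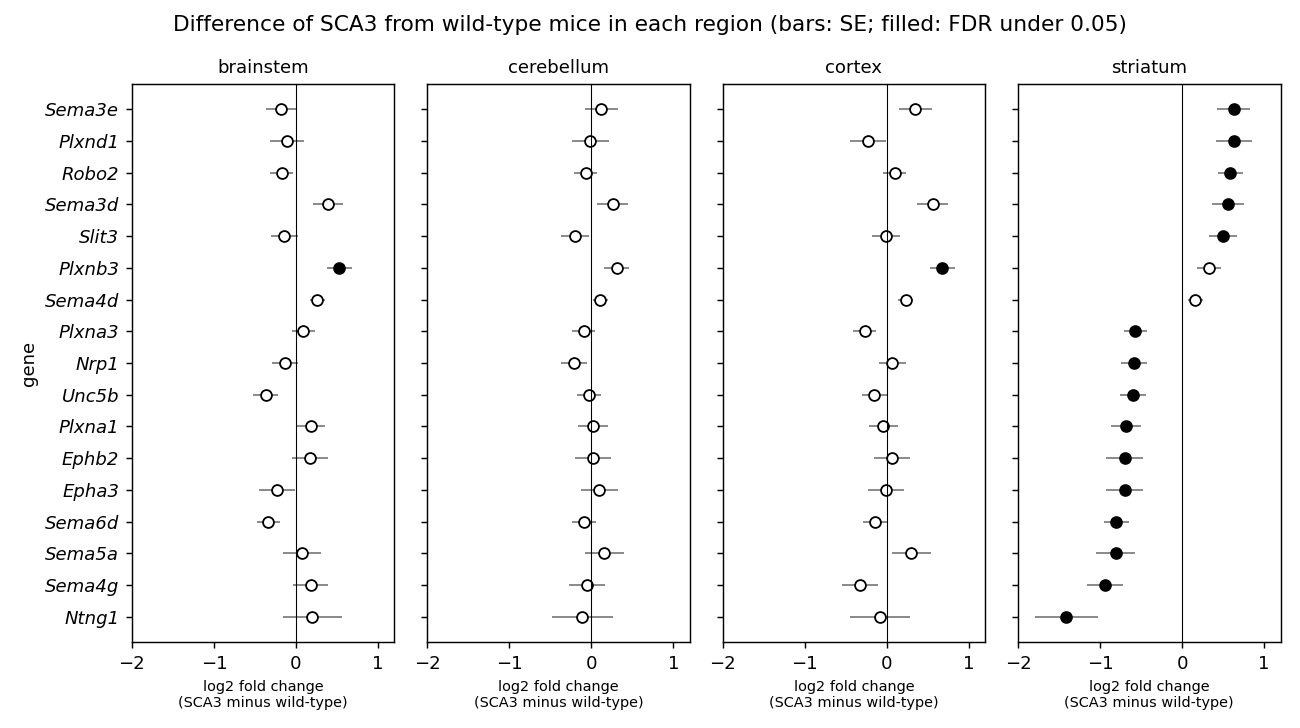
Log2 fold change of SCA3 against wild-type mice (horizontal axis, bars SE) in 4 regions for the 16 members called in any region and Sema4d, with filled points at an FDR below 0.05. The 15 filled points in striatum extend from -1.41 (Ntng1) to 0.63 (Sema3e and Plxnd1), whereas Plxnb3 is the filled point in brainstem and in cortex.

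Among the ligands, Sema6d, a transmembrane semaphorin that binds plexin-A1, had the smallest FDR. Its SCA3 striata held 74.0, 84.7, 118, 92.5 and 79.7 CPM and its 8 wild-type striata 117 to 213 CPM (median 151). Only the highest SCA3 library, mouse 9082853, reached the range of the wild-type libraries. The log2 fold change was -0.80 ± 0.15 (FDR 0.00011), and -0.66 (FDR 0.0047) without the 2 thalamus-rich libraries. Brainstem Sema6d did not pass (146 to 199 CPM in SCA3, 164 to 251 CPM in wild-type, -0.34 ± 0.14, FDR 0.24), and its fold changes in cerebellum and cortex were -0.09 and -0.14.

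Sema3d is a secreted class 3 semaphorin on chromosome 5 (12383161 to 12588953). It was low in all regions and rose in striatum, where SCA3 libraries held 10.3, 12.4, 15.1, 8.12 and 9.4 CPM and wild-type libraries 5.34 to 9.71 CPM (median 7.97). The groups overlapped, and the fold change was 0.56 ± 0.19 (FDR 0.046). The call was close to the threshold: it passed in 5 of 14 fits that left out 1 mouse, and the FDR was 0.059 by the quasi-likelihood test, 0.074 with the replicate block, 0.078 with a RIN of at least 7 and 0.049 without the 2 thalamus-rich libraries. In cortex, Sema3d was 9.94 to 17.6 CPM in SCA3 and 5.2 to 12.5 CPM in wild-type mice, with a fold change of the same size that did not pass (0.56 ± 0.19, FDR 0.47). Its brainstem and cerebellar fold changes were 0.39 and 0.26.

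Sema3e is a secreted ligand that acts on plexin-D1 directly. Its SCA3 striata held 67.5, 79.8, 84.6, 57.8 and 71.9 CPM and the wild-type striata 28.4 to 74.7 CPM (median 44.2), a difference of 0.63 ± 0.20 with an FDR of 0.029. Plxnd1, its receptor, held 180, 145, 82.1, 118 and 181 CPM in SCA3 and 47.3 to 152 CPM (median 83.9) in wild-type mice (0.63 ± 0.22, FDR 0.048). The ranges overlapped for both genes. Without the 2 thalamus-rich libraries neither passed (Sema3e 0.69, FDR 0.059, and Plxnd1 0.44, FDR 0.31).

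Slit3, a repulsive ligand, held 63.7, 70, 50, 64.0 and 69.5 CPM in SCA3 and 30.7 to 68.4 CPM (median 43.9) in wild-type striata (0.50 ± 0.17, FDR 0.045). Robo2, a Slit receptor, held 162, 178, 157, 155 and 175 CPM against 72.4 to 172 CPM (median 99.6), with a fold change of 0.59 ± 0.15 (FDR 0.0035). All SCA3 values of Robo2 lay above 7 of the 8 wild-type values. Without the 2 thalamus-rich libraries Slit3 did not pass (0.36, FDR 0.3), and Robo2 passed just under the threshold (0.49, FDR 0.05 after rounding). Slit1 and Slit2 did not pass in either fit.

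Ntng1, which encodes netrin-G1, a protein found on thalamocortical axons among others, had the largest difference. SCA3 striata held 25.3, 24.4, 43.6, 19.7 and 21.1 CPM, and wild-type striata 17.7 to 214 CPM with a median of 32.7. The fold change was -1.41 ± 0.38 (FDR 0.013). Both thalamus-rich libraries, with 177 and 214 CPM, lay far above the other 6 wild-type striata (17.7 to 54.5 CPM), and without them the fold change was -0.17 (FDR 0.83). The wild-type striatal mean of Ntng1, the highest of the 4 regions at 71.5 CPM, was 30.2 CPM without them.

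Sema4g and Sema5a are transmembrane semaphorins. Sema4g held 25.0, 24.7, 37.0, 25.0 and 24.3 CPM in SCA3 and 23.8 to 85.4 CPM (median 50.4) in wild-type striata (-0.94 ± 0.22, FDR 0.003). Sema5a held 22.5, 34.9, 62.2, 47.7 and 33.8 CPM against 21.4 to 116 CPM (median 71.7), with a fold change of -0.81 ± 0.24 (FDR 0.025). In both genes the SCA3 values fell within the lower part of the wild-type range. Without the 2 thalamus-rich libraries the fold changes were -0.71 (FDR 0.061) and -0.50 (FDR 0.31).

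Of the receptors that fell, Plxna1, Plxna3 and Nrp1 belong to receptor complexes of class 3 semaphorins. Plxna1 held 46.5, 56.4, 65.7, 91.9 and 50.1 CPM in SCA3 and 44.3 to 138 CPM (median 103) in wild-type striata (-0.68 ± 0.18, FDR 0.01). For Plxna3 the SCA3 values were 30.1, 37.0, 35.1, 41.9 and 30.9 CPM and the wild-type values 33.8 to 80.5 CPM (median 48.7), with a fold change of -0.57 ± 0.14 (FDR 0.0056). Nrp1 held 18.6, 23.8, 27.7, 31.3 and 21.3 CPM against 22.2 to 56.7 CPM (median 35.9), a difference of -0.59 ± 0.16 (FDR 0.014). The groups overlapped for all 3 receptors. Without the 2 thalamus-rich libraries all 3 passed (Plxna1 -0.70, FDR 0.031, Plxna3 -0.68, FDR 0.0014, and Nrp1 -0.64, FDR 0.025). In Plxna1, 10.7% of the exonic length overlaps an opposite-strand gene, and the counting did not use strand.

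Unc5b held 58.8, 54.6, 64.0, 49.1 and 59.4 CPM in SCA3 and 59.9 to 142 CPM (median 77.1) in wild-type striata (-0.60 ± 0.16, FDR 0.0079), and 4 of the 5 SCA3 values lay below every wild-type value. The Eph receptors Epha3 and Ephb2 were low in striatum. Epha3 held 2.81, 2.82, 2.99, 3.01 and 2.95 CPM against 2.59 to 7.96 CPM (median 4.19), with a fold change of -0.70 ± 0.23 (FDR 0.04). Ephb2 held 6.16, 7.2, 9.96, 10.6 and 6.97 CPM against 6.39 to 19.6 CPM (median 14.3), with a fold change of -0.70 ± 0.23 (FDR 0.043). None of these 3 receptors passed without the 2 thalamus-rich libraries, where the fold changes were -0.39 for Unc5b (FDR 0.15), -0.62 for Epha3 (FDR 0.14) and -0.57 for Ephb2 (FDR 0.23).

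Some cell type markers also differed between genotypes in striatum. Of the 10 thalamic markers measured, 5 were called lower in SCA3 striatum and none higher. The 11 striatal projection neuron markers all had fold changes above 0 (median 0.43) without passing, with sums of 3141 to 12239 CPM in wild-type and 7487 to 11211 CPM in SCA3 striata. No marker of these lists was under 1 CPM throughout a group. Mice 9082857 and 9083371, the wild-type striata with the highest striatal neuron sums (12239 and 12010 CPM), were also the wild-type striata with the highest Robo2 (172 and 146 CPM) and Plxnd1 (149 and 152 CPM) and the lowest Plxna1 (44.3 and 52.9 CPM) and Nrp1 (22.5 and 22.2 CPM). Which of the other striatal calls follow this order is not given here. Mature oligodendrocyte markers (4 of 10 lower, sums of 6576 to 19127 CPM in wild-type and 6070 to 9234 CPM in SCA3) and astrocyte markers (5 of 9 lower, 3959 to 5674 CPM and 4095 to 4553 CPM) moved as well. Their part in the differences of single genes was not tested.

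**Figure D4:**
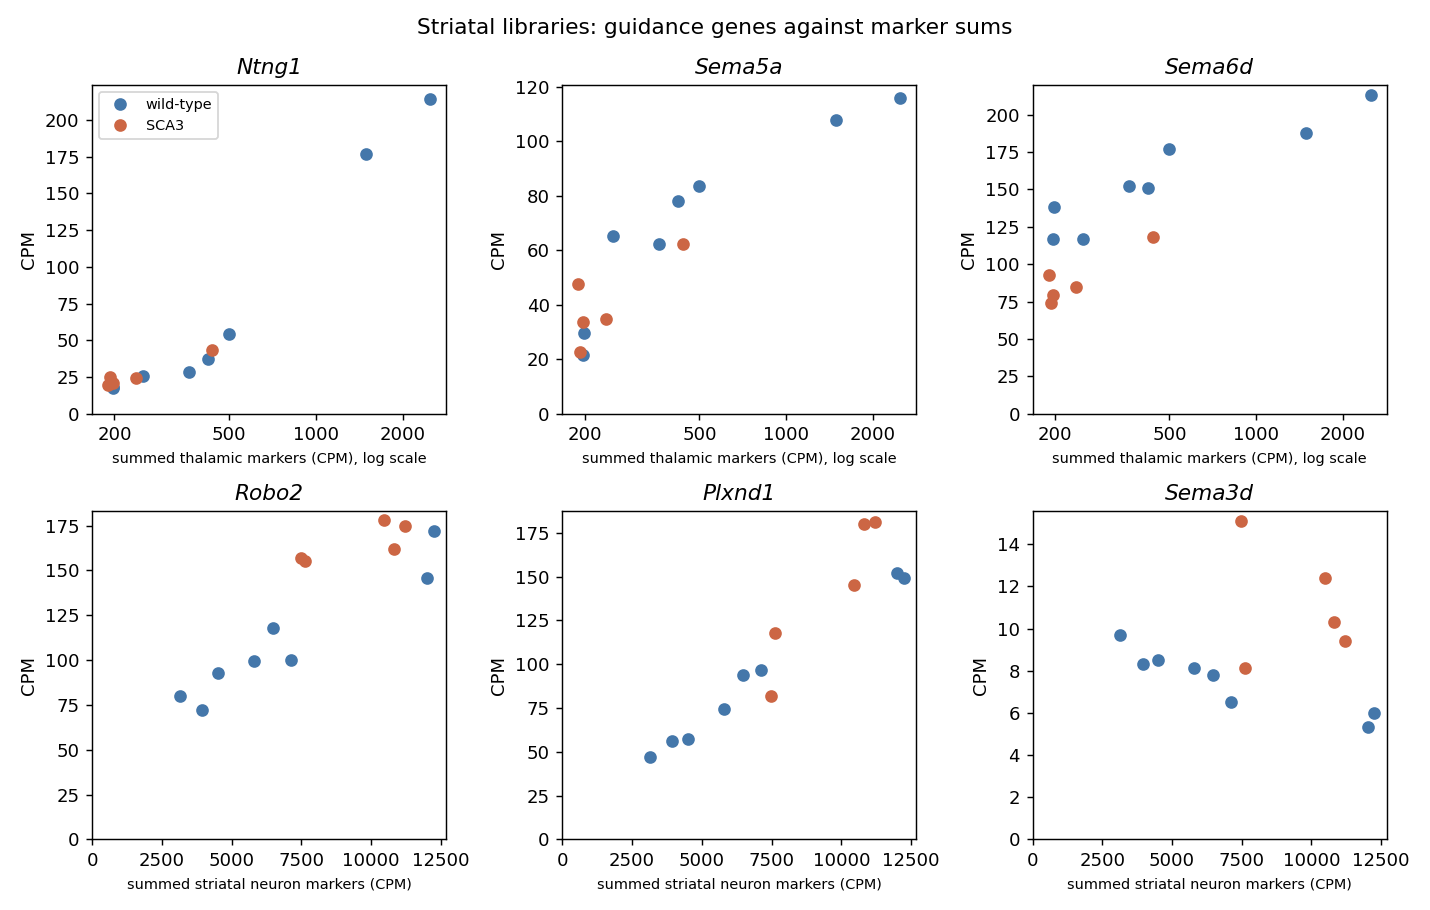
Levels of 6 guidance genes (CPM, vertical axis from 0) in the 13 striatal libraries against summed thalamic markers (upper row, log axis, CPM) or summed striatal neuron markers (lower row, CPM), wild-type in blue and SCA3 in orange. Ntng1 reaches 177 and 214 CPM in the 2 thalamus-rich wild-type libraries. The wild-type libraries with the highest striatal neuron sums have the highest wild-type Robo2 and Plxnd1. The SCA3 library with the highest thalamic sum (437 CPM) reaches the wild-type range of Sema6d, and the other SCA3 libraries lie below that range. The part of tissue content was not tested.

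Of the 15 striatal calls, 6 remained in the fit without the 2 thalamus-rich libraries (Sema6d, Plxna3, Nrp1, Plxna1, Robo2 and Sema3d), and Plxnb3 was added, so that 7 members (10.4%) were called where 2.34% of all genes were. All 15 fold changes kept their sign there. With the mean log2 level of the thalamic markers as a covariate in the striatal libraries alone, Sema6d (-0.60, FDR 2e-06) and Sema3d (0.73, FDR 0.00045) passed. With the striatal neuron markers as covariate the same pair passed (Sema6d -0.54, FDR 0.0025, and Sema3d 0.81, FDR 0.0005), the fold change was smaller than in the fit of all libraries for 14 of the 15, and the median ratio of the absolute fold changes was 0.51. Sema3d was the exception. Of all genes 0.994% passed with the thalamic score and 0.251% with the striatal neuron score. Among all 29 alternatives, Sema6d passed in 28 and Sema3d in 14. In the striatal libraries alone without a covariate, Sema6d was the only member that passed (-0.80, FDR 0.0021).

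The combined test, which asks whether a gene differs between genotypes in any region, passed for 8 members (11.9%), against 4.73% of all genes: Plxnb3 (FDR 3e-06), Sema6d (0.00011), Sema3d (0.0041), Unc5b (0.011), Sema4d (0.014), Sema4g (0.018), Plxna3 (0.018) and Robo2 (0.026). The test of region dependence, which asks whether the genotype difference varies among regions, passed for none of the 67 members by edgeR's likelihood ratio test, nor by DESeq2, and for 0.218% of all genes. At an unadjusted p below 0.05 there were 16 members, a count given without the share of all genes at that cut. Robo2 had the smallest FDR (0.13). Without wild-type mouse 9082857 the test passed for 4 members (Robo2, Sema4g, Plxna1 and Sema5a) and 2.13% of all genes, without wild-type mouse 9083371 for Robo2 and 0.946% of all genes, and without SCA3 mouse 9082853 for Sema4g and 0.55% of all genes. With all mice, a member that passed in striatum and not elsewhere is therefore not shown to differ between regions. With the mouse as a replicate block in limma-voom, 4 members (Plxnb3, Sema6d, Sema3d and Robo2) and 2.1% of all genes passed the combined test, and with each mouse left out in turn 3 to 15 did, the fewest without SCA3 mouse 9083515 (2.25% of all genes) and the most without wild-type mouse 9082857 (8.48%).

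Other genes of the pathway were described by lists chosen for their function. Of 24 other guidance cues and coreceptors measured, Dscaml1 rose in brainstem (56.2 against 43.9 CPM, log2 fold change 0.36 ± 0.09, FDR 0.012), and in striatum Dscam fell (34.6 against 63.4 CPM, -0.88 ± 0.19, FDR 0.00094) and Alcam rose (439 against 316 CPM, 0.47 ± 0.16, FDR 0.034). These 2 striatal calls are 8.3% of the list, near the 7.54% of all genes called in striatum in either direction. The single brainstem call is 4.2% of the list, where 1.92% of all genes were called. Dscam and Dscaml1 are homophilic adhesion receptors, of which Dscam also binds netrin, and Alcam is an adhesion protein of the immunoglobulin family. Of 50 intracellular effectors, Fyn, a kinase downstream of several guidance receptors and active in myelination, rose in brainstem (117 against 99.5 CPM, 0.24 ± 0.05, FDR 0.00024). The Fyn call is 2.0% of the list, near the 1.92% of all genes called in brainstem. In striatum 6 effectors were called, of which 1 rose and 5 fell. They are 12% of the list, where 7.54% of all genes were called (2.07% higher and 5.47% lower). Those that fell were the actin-binding protein Ablim3 (-0.59 ± 0.15, FDR 0.0055), the Rac exchange factor Farp1 (-0.42 ± 0.12, FDR 0.012), the cofilin kinases Limk2 (-0.23 ± 0.06, FDR 0.013) and Limk1 (-0.61 ± 0.20, FDR 0.049) and the small GTPase Rnd1 (-0.77 ± 0.24, FDR 0.027). Without the 2 thalamus-rich libraries, Dscam (-0.74, FDR 0.015) and Ablim3 (-0.61, FDR 0.015) were the striatal genes of these lists, among those called with all libraries, that still passed. No gene of either list was called in cerebellum or cortex.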

How the data were processed

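RNA was isolated from 4 brain regions of 14 mice and sequenced as 53 libraries. The authors trimmed the reads, aligned them to GRCm38 with STAR 2.3.0e, keeping unique alignments, and used HTSeq 0.6.1 with the RefSeq annotation, ignoring strand. The deposited values were raw counts per gene, filtered by the authors to genes averaging above 4 CPM (12372 genes, lowest mean 4.07 CPM). Reads of near-identical gene copies were therefore not counted and overlapping genes on opposite strands were not separated.

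Region and genotype were taken from the sample labels. Counts were normalised by TMM and fitted with edgeR 4.0.16 (R 4.3.3), all 53 libraries in 8 groups of region and genotype, following the study's methods. Likelihood ratio tests compared genotypes per region, jointly over regions (combined test) and for interaction with region, and compared each wild-type region with the mean of the other 3 and regions in pairs. Benjamini-Hochberg adjustment ran over all genes, and an FDR below 0.05 was a call. CPM values use TMM-adjusted totals, and the prior count for log2 values was 2. Libraries held 31.68 to 76.7 M counts. Per-length values divide by the union of GENCODE M21 exons. The scripts were tested on simulated data. Members and lists were chosen with earlier results of these data known. Every member could be named. The values of 2 genes of the other lists are not reported here. Full values were given for members called in any region or by the combined test, for the 3 called members with the largest excess in each wild-type region, and for the 3 highest levels per length.

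The same mice gave several regions and so pair the libraries. Within a mouse, deviations from the group means of different regions correlated at a mean r of 0.0904 to 0.186 over pairs of regions (12 or 13 mice), and the block correlation was 0.14. Alternatives were edgeR's quasi-likelihood test, DESeq2 1.42.0, limma-voom (limma 3.58.1) with and without the mouse as a block, RLE factors, a filter of 10 counts in each library, RIN or mouse series as a covariate, a RIN of at least 7 (49 libraries), the largest mouse series alone (7 mice), regions fitted alone with and without a thalamic marker score, mouse as fixed block, and each mouse left out in turn. Mouse series grouped mice by the leading digits of their numbers. Leaving out striata above 1000 CPM of thalamic markers, and a striatal neuron marker score as covariate, were chosen after seeing the data.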

Additional observations from a re-analysis of the deposited data

Results flagged for a closer look

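In the SCA3 striatal group, mouse 9082853 stood apart from the other 4 libraries for Ntng1 (43.6 CPM, the others 19.7 to 25.3 CPM) and for Sema4g (37.0 CPM, the others 24.3 to 25.0 CPM), by the gap to its neighbour relative to the range of the group. The same library had the highest thalamic marker sum among SCA3 striata (437.1 CPM) and the lowest striatal neuron marker sum (7487 CPM). Of 44 groups of member values examined in this way 2 were picked out, and chance alone picks out about 1 in 20.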

How the results depend on the processing

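The number of members called in each wild-type regional comparison moved by less than 1.5 times under all alternatives run. Split by direction, 1 count moved further, the members lower in wild-type striatum, from 18 to 11 in the largest mouse series alone. Of all genes, 27.2% and 23.7% were called lower there, respectively. With the mouse as a replicate block in limma-voom, 41, 57, 50 and 46 members were called in wild-type brainstem, cerebellum, cortex and striatum (72.9%, 75.8%, 62.5% and 59.7% of all genes), and 39, 57, 49 and 44 without the block (70.4%, 73.9%, 60% and 56.3%). The block called 10 members between genotypes in striatum (5.76% of all genes), as did limma-voom without it (5.63%). For striatum, where 15 members were called (7.54% of all genes), the counts were 2 with a RIN of at least 7 (1.12% of all genes), 0 in the largest mouse series alone (0.242%), 1 in striatum alone (0.711%), 2 with the thalamic score (0.994%) and 2 with the striatal neuron score (0.251%) as covariate, 7 without the 2 thalamus-rich libraries (2.34%) and 3 in striatum alone without them (0.873%). DESeq2 called 17 (9.39%), adding Epha10 (-0.58, FDR 0.043) and Nrp2 (-0.99, FDR 0.049). With mouse series as a covariate Epha10 was added as well (-0.62, FDR 0.032), where 9.25% of all genes were called. The combined test, with 8 members (4.73% of all genes), called 5 by the quasi-likelihood test (3.39%), 5 by limma-voom (2.93%), 4 with the replicate block (2.1%), 5 with a RIN of at least 7 (2.62%), 3 in the largest series (2.13%) and 5 without the thalamus-rich libraries (3.57%). The single brainstem call (1.92% of all genes) became 0 with the replicate block (2.05%), with RIN as a covariate (1.43%) and in the largest series (1.96%). It became 2 in brainstem alone (Sema6d added, -0.35, FDR 0.036) and 4 with the thalamic score (Sema4d, 0.34, Sema6d and Unc5b, both -0.29, added), which are 2.99% and 5.97% of the members, near the 3.17% and 5.43% of all genes. The cortical call (0.154% of all genes) became 0 with the replicate block (0.0727%) and in the largest series (0.097%), and cerebellum had 1 call with the thalamic score (Plxnb3, 0.40, FDR 0.00011), where 0.639% of all genes were called.

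Leaving out each mouse gave 0 to 2 calls in brainstem (0.97% to 2.5% of all genes), 0 to 1 in cortex (0.0889% to 0.226%), 5 to 21 in striatum (2.4% to 14.8%), 3 to 15 in the combined test (2.25% to 8.48%) and 0 to 4 for region dependence (0.0242% to 2.13%). Striatum had 5 calls without SCA3 mouse 7267054, 7267056 or 9083515 and 8 or 9 without wild-type mouse 7267058, 9083372 or 9083373 (4.51%, 5.65% and 4.44% of all genes), and the most without wild-type mouse 9082857, which also gave the 4 calls of region dependence (Robo2, Sema4g, Plxna1 and Sema5a, with 2.13% of all genes). Signs turned for Ntng1 (0.05 with the thalamic score, 0.18 with the striatal neuron score) and Sema5a (0.04 with the latter). No other fold change of the 17 regional calls turned. The causes of these shifts were not tested. The region of highest wild-type level was the same for 63 of 67 members when log2 values with a prior count of 2 were averaged in place of CPM. Each group held 5 to 8 mice and each library at least 31.68 M counts, and the power to find small differences was not tested.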

Other observations

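Several members varied more within a region than between genotypes. Cortical Robo3 ranged from 6.75 to 105 CPM in wild-type and from 9.98 to 90.8 CPM in SCA3 mice, and cortical Sema7a from 44.2 to 315 CPM and from 71.0 to 314 CPM. Cerebellar Slit1 ranged from 1.17 to 21.9 CPM in wild-type and from 0.536 to 16.5 CPM in SCA3 mice. Robo1, which was not called in striatum (log2 fold change 0.28 ± 0.15, FDR 0.24), had SCA3 values of 84.7 to 105 CPM, all above the wild-type values of 65.1 to 82.7 CPM. Ntng2 in brainstem was likewise not called (0.24 ± 0.25, FDR 0.74) though its groups did not overlap. The share of all genes separated in this way was not counted.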
